A study of Mus musculus with 64 samples.

Results

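The sites described here are the positions on the mouse genome where the antibody against TCF7L2 gave a strong peak in all 4 conditions of a chromatin immunoprecipitation sequencing (ChIP-seq) study of mouse pluripotent cells. They were chosen from the TCF7L2 peak lists themselves. In each of the 12 TCF7L2 libraries the 4134 peaks with the highest fold were kept, where the fold is the signal at the summit of a peak over the local background, and 4134 is the length of the shortest list. Peaks that shared at least 1 bp were merged over libraries into 27969 sites. The sites kept throughout are the 920 with a peak in at least 2 of the 3 libraries of each condition, or 3.29% of all sites, and they are called members below. For comparison, 2130 sites had this support in exactly 1 condition and are called single-condition sites. TCF7L2 peaks and folds at members are descriptions, because they chose the members. A TCF7L2 peak means a peak of the libraries made with this antibody, and whether the antibody also recognised another protein was not tested.

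TCF7L2, TCF4 in the labels, is a DNA-binding protein of the TCF/LEF family. It recognises short AT-rich sequences and, when WNT signalling stabilises β-catenin, recruits β-catenin to target genes such as Axin2 and Sp5, which feed back on the pathway. In the absence of the signal, TCF proteins can repress the same genes. The other proteins mapped in the same cells were β-catenin, the family members LEF1 and TCF7L1 (TCF3 in the labels), and SOX2, which maintains pluripotency and later marks neural progenitors.

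Naive embryonic stem cells (naive ESC) were wild-type (WT) cells of the XY HM1 TetON line, grown in 2i, in which CHIR99021 inhibits GSK3 and PD0325901 inhibits MEK. The same WT cells became caudal epiblast-like cells (CEpiLC) when differentiated with FGF and LGK974, a blocker of WNT secretion, and then also with CHIR99021, which activates the pathway. The SOX2-TetON line, a clone derived from the WT line, had its endogenous Sox2 ablated (Sox2-/-) and carried a Sox2 transgene induced by doxycycline in the Hprt locus, with the transactivator rtTA expressed from Rosa26. SOX2-ON and SOX2-OFF are this line taken through the CEpiLC protocol, the first with 1 µg/ml doxycycline throughout and the second after its withdrawal. All 4 conditions therefore contained CHIR99021 when the cells were fixed, so no condition lacked activation of the pathway, and naive ESC and SOX2-ON are the high-SOX2 arms of the design. In the WT line the SOX2 level and the state of differentiation cannot be told apart. Each of the 5 targets had 3 libraries per condition, 60 in all, and every peak list came from 1 library. The labels call the 3 libraries biological replicates, and the study's methods take them from separate experiments. Whether libraries of different conditions or targets shared an experiment is not given. The p-values treat libraries as independent and measure the spread between them. Peaks came from bulk cultures, so binding in more cells and stronger binding per cell cannot be told apart.

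The TCF7L2 lists held from 4134 to 557844 peaks, with no read counts, so depth is unknown. The lowest fold kept ranged from 1.29 in SOX2-OFF replicate 2, whose whole list was kept, to 9.93 in CEpiLC replicate 2. Libraries of the other targets were likewise shortened by fold to 20000 peaks for SOX2, 3423 for β-catenin, 4443 (LEF1) and 1628 (TCF7L1). In naive ESC LEF1 replicate 1 and CEpiLC TCF7L1 replicate 1, only 9.50% and 11.0% of the 200 strongest peaks held the TCF sequence defined below, against 61.5% to 75.5% in the other libraries of the same groups. For LEF1 and TCF7L1, the differences between site classes and between conditions are also given without replicate 1. This does not even out the LEF1 lists. Over a whole shortened LEF1 list, 60.6% to 64.8% of peaks held the TCF sequence in CEpiLC. The range was 7.79% to 40.1% in naive ESC, 21.5% to 28.9% in SOX2-ON and 23.5% to 33.4% in SOX2-OFF. For TCF7L1 in SOX2-ON it was 23.1% in replicate 1 against 57.1% and 57.8%.

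The strongest members carried different sequences at promoters and away from them. The first 3 windows below are the bases within 100 bp of the summit at the 3 members with the highest median fold, all of them promoter sites, and they show the sequence that most strong members share. Capitals mark TCGCGAGA on either strand, the 8-base sequence that separated promoter members from single-condition promoter sites by most.
Banp promoter, chr8:121950553-121950753, plus strand: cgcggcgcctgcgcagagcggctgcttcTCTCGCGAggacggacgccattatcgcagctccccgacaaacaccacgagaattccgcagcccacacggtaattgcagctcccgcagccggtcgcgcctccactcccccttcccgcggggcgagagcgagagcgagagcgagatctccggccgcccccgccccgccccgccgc
Cdk12 promoter, chr11:98202582-98202782, plus strand: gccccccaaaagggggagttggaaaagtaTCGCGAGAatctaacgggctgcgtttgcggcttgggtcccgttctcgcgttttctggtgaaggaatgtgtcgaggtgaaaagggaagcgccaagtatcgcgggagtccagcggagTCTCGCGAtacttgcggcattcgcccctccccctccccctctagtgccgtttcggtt
Zzz3 promoter, chr3:152396563-152396763, plus strand: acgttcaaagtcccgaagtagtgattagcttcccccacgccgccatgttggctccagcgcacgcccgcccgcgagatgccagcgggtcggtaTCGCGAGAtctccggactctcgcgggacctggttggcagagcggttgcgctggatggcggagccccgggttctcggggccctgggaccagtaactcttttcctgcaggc

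The next 3 windows are among the strongest members outside promoters, shown for contrast, where capitals mark the TCF sequence, CTTTGAA or CTTTGAT on either strand. They lie between genes near Naa30, upstream of Lef1 and within an exon of Atn1. Reference bases are those of GRCm38, the assembly also named mm10.
Naa30 distal site, chr14:49155662-49155862, plus strand: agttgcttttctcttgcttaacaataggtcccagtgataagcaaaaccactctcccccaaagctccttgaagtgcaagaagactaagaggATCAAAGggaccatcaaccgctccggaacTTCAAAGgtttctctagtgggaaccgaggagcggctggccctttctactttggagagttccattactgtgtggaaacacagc
Lef1 upstream site, chr3:131106004-131106204, plus strand: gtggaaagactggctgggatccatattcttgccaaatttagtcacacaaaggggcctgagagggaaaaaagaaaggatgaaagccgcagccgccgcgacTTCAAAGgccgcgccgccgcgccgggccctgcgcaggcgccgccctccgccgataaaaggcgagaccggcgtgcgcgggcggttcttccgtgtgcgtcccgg
Atn1 exon site, chr6:124745580-124745780, plus strand: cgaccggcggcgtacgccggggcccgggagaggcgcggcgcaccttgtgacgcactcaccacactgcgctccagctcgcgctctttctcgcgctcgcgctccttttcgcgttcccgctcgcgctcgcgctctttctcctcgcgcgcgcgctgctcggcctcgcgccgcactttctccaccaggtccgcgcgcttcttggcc

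Of these windows, Cdk12 held TCGCGAGA at 2 positions, Banp and Zzz3 at 1, and none of the 3 shown outside promoters held it. The third strongest member outside promoters, in Pura, is not shown and did hold it. The window near Naa30 held the TCF sequence at 2 positions and that upstream of Lef1 at 1, and the window in Atn1 matched neither sequence. The Zzz3 window also held a TCF match near its edge, which is not capitalised.

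Members were concentrated at promoters. A promoter site was taken as one within 1000 bp of an annotated transcription start, and 781 of 920 members were promoter sites (84.9%, exact 95% confidence interval 82.4 to 87.1). The share was 40.6% of single-condition sites (864 of 2130) and 20.5% of all merged sites (5727 of 27969). It rose with the number of conditions that supported a site, from 14.8% with none to 43.4% with 2 and 62.3% with 3. Sites are not replicates, and no test was made over them. The summit lay close to the start: the median position was 25.0 bp upstream, with quartiles at 91.0 bp upstream and 22.0 bp downstream, and 475 of the 781 summits lay within 100 bp of a start. At 119 promoter members, protein-coding genes started on both strands. Of the 139 members outside promoters, 58 had their summit in an intron, 10 in an exon and 71 between genes, at a median of 9591 bp from the nearest start. Members were wider than single-condition sites, at a median of 798 bp (quartiles 641 and 994) against 396 bp (301 and 529), and 1.63% against 9.15% lay mostly in soft-masked repeats.

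Support was nearly complete. Of the 920 members, 637 had a peak in all 12 libraries, 163 in 11, 81 in 10, 30 in 9 and 9 in 8. Each library had a peak at 804 to 915 members. The median fold over members ranged from 15.1 in SOX2-ON replicate 2 to 40.4 in CEpiLC replicate 2, against 6.12 to 12.4 over all 4134 peaks of a library. Promoter members had the higher fold in each of the 12 libraries, with medians of 16.1 to 43.4 against 11.6 to 27.2 outside promoters. Between 82 and 100 of the 100 strongest peaks of a library were at members.

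**Figure D1:**
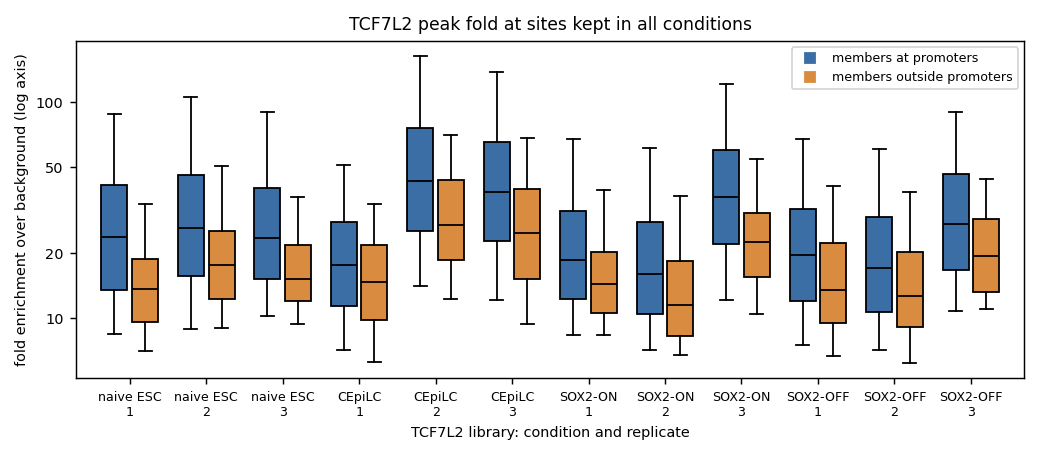
Fold of TCF7L2 peaks over local background at the 920 members, on a log axis, for each of the 12 libraries. Boxes span the quartiles with the median as a line, whiskers the 5th and 95th percentiles. Promoter members (blue) have the higher median in every library, and their medians run from 16.1 to 43.4.

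The limit of the rule was not sharp. Members with 2 of 3 libraries in at least 1 condition numbered 283 and had a median fold of 12.5, against 28.7 for the 637 with 3 of 3 throughout. Just outside, 239 sites missed 1 condition with 1 of 3 libraries there and had a median fold of 10.9, and 143 missed it with 0 of 3 and had 10.3. Of these 382 sites, 150 missed naive ESC, 148 SOX2-ON, 62 SOX2-OFF and 22 CEpiLC.

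The 6 promoter members of highest median fold were at Banp, Cdk12, Zzz3, Qrich1, Denr and Scamp5. Banp (ENSMUSG00000025316.16, chromosome 8, 121949770 to 121951186) encodes a DNA-binding nuclear protein and was the strongest member, with a median fold of 220. Naive ESC libraries had folds of 235, 318 and 290, CEpiLC libraries 81.9, 448 and 309, SOX2-ON libraries 121, 112 and 223, and SOX2-OFF libraries 185, 142 and 218. The conditions overlapped, and the range within CEpiLC alone spanned all other libraries. Cdk12 (ENSMUSG00000003119.14, chromosome 11, 98201824 to 98203391), a kinase of the RNA polymerase II tail, had a median of 185 and ranged from 67.1 to 434, with the lowest and the highest value both in CEpiLC. Zzz3 (ENSMUSG00000039068.16, chromosome 3, 152396037 to 152397133), a subunit of the ATAC histone acetyltransferase complex, had a median of 183. Its SOX2-ON folds of 72.5, 67.1 and 131 were all below those of naive ESC at 192, 297 and 265. Qrich1, a transcription regulator of the unfolded protein response, had a median of 182, and its SOX2-OFF folds of 112, 80.3 and 101 lay below its SOX2-ON folds of 218, 182 and 297. Denr, a factor for re-initiation of translation, had a median of 173, and Scamp5, a protein of secretory vesicles, one of 144. CEpiLC replicate 1, which also had the lowest highest fold of any library at 81.9, gave the lowest value at each of the 6 promoters except Zzz3, where it was 67.2 against 67.1 in SOX2-ON replicate 2.

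TCGCGAGA was frequent at promoter members. It was found by comparing all 8-base sequences within 100 bp of the summit on both strands, after the members were known, and so its excess over single-condition sites is what selected it. Of 31076 sequences seen, it ranked first: 315 of 781 promoter members held it (40.3%) against 18 of 864 single-condition promoter sites (2.08%). Among 10-base sequences the first was the palindrome TCTCGCGAGA, which contains the 8-base sequence on each strand, in 152 promoter members (19.5%) and 3 single-condition promoter sites (0.347%). This palindrome is known as the CGCG element of CpG island promoters, and BANP has been described as a protein that binds it. BANP was not measured here, so its presence at members was not tested. The share with TCGCGAGA was 1.12% over 21951 windows of the same length centred on starts of protein-coding genes, 3.60% at members outside promoters (5 of 139) and 0 of 1840 windows 5000 bp from members (exact upper limit 0.200%). Base composition differed little between the promoter classes, with 65.3% ± 7.68 G and C (SD over sites) at promoter members and 64.4% ± 9.46 at single-condition promoter sites, and a mean of 20.0 and 17.7 CpG dinucleotides per window.

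Where present in promoter members, TCGCGAGA lay at a median of 6.50 bp from the TCF7L2 summit, and within 25 bp in 297 of 315. The shares that follow are descriptions, because they order sites by the fold or the library counts that chose the members and, through them, the sequence. Of 4 groups of 230 members ordered by median fold, the strongest group held it in 68.7%, the next in 40.0%, then 21.3%, and the weakest in 9.13%. Of the 100 strongest members, 81 held it, 99 were promoter sites and 5 held the TCF sequence. It was present in 287 of the 576 promoter sites with a peak in all 12 libraries (49.8%), in 18.4% of those with 11, 5.45% of those with 8 and 0.548% of those with 1. Over the genome the 8-base sequence occurred 2453 times. Of its 790 occurrences within 1000 bp of a start, 535 lay in a member (67.7%), against 13 of 1663 elsewhere (0.782%). The palindrome occurred 220 times, and 167 of its 186 occurrences near a start lay in a member (89.8%).

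**Figure D2:**
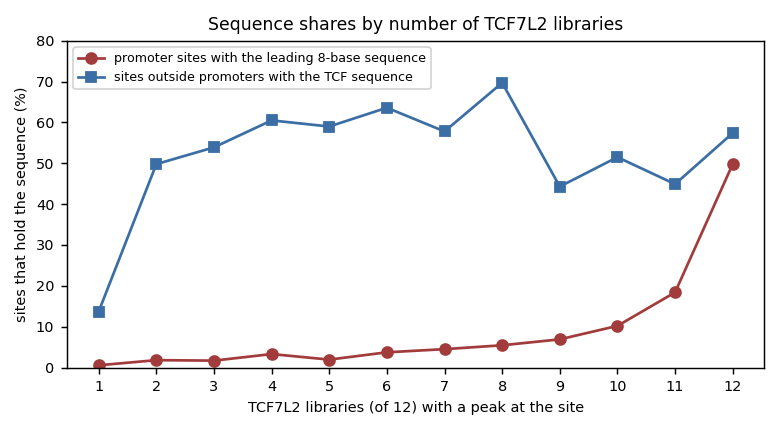
Share of TCF7L2 sites, in percent, that hold the leading 8-base sequence (promoter sites, red) or the TCF sequence (sites outside promoters, blue), by the number of the 12 TCF7L2 libraries with a peak. The red line climbs from 0.548% at 1 library to 49.8% at 12, while the blue line stays between 44.3% and 69.7% from 2 libraries on.

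The same sequence differed in share between the TCF7L2 libraries and those of the other targets. It was chosen at TCF7L2 members, where 82 to 100 of the 100 strongest peaks of a TCF7L2 library lay. The TCF7L2 shares of TCGCGAGA below are therefore descriptions and no separate support. Among the 200 strongest peaks of a library, 60.5% to 73.5% held TCGCGAGA in the 12 TCF7L2 libraries. Naive ESC libraries had 62.5, 70.0 and 70.0%, CEpiLC libraries 64.5, 68.0 and 73.5%, SOX2-ON libraries 60.5, 67.5 and 71.5%, and SOX2-OFF libraries 62.0, 66.0 and 68.5%, each in ascending order. The conditions overlapped throughout. In the 48 libraries of the other 4 targets the share was between 0 and 0.500%. The TCF sequence was in 3.00% to 11.5% of the 200 strongest TCF7L2 peaks, in 14.5% to 33.5% of those of SOX2 and in 61.5% to 86.0% of those of β-catenin. For LEF1 it was in 47.0% to 87.0% and for TCF7L1 in 43.5% to 77.5%, apart from 2 libraries. These were naive ESC LEF1 replicate 1 and CEpiLC TCF7L1 replicate 1, whose 9.50% and 11.0% lay within the range of TCF7L2. Of the 1965, 581, 127 and 245 sites that the same rule kept in all conditions for SOX2, β-catenin, LEF1 and TCF7L1, TCGCGAGA was at 1, 0, 0 and 0.

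**Figure D3:**
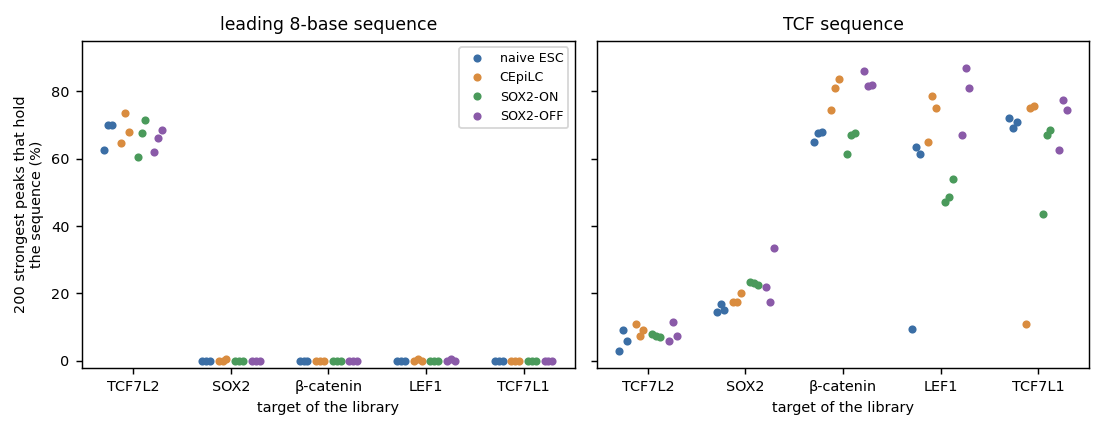
Percent of the 200 strongest peaks of each of the 60 libraries that hold the leading 8-base sequence (left) or the TCF sequence (right) within 100 bp of the summit, by target and condition, with a point per library. TCF7L2 libraries lie between 60.5% and 73.5% on the left and all other libraries at or below 0.500%, whereas on the right TCF7L2 libraries lie between 3.00% and 11.5%. The leading sequence was chosen at TCF7L2 members, so its shares in TCF7L2 libraries are descriptions.

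Outside promoters the TCF sequence was the frequent one. It was held by 71 of 139 members there (51.1%, exact 95% confidence interval 42.5 to 59.6), by 56.3% of single-condition sites outside promoters and by 7.34% of windows 5000 bp from members. Members and single-condition sites outside promoters thus had overlapping intervals, 42.5 to 59.6 and 53.5 to 59.1. At promoters it was in 39 of 781 members (4.99%), in 15.9% of single-condition sites and in 4.17% of starts of protein-coding genes. The SOX sequence was searched as CATTGT or CTTTGT, and CTTTGT shares its first letters with the TCF sequence. The SOX sequence was in 30.2% of members outside promoters and 43.7% of single-condition sites there, against 26.5% of windows 5000 bp away. At promoters, other sequences of CpG island promoters were nearer to the single-condition sites: GGGCGG, bound by SP and KLF factors, was in 57.4% against 52.1%, CCGGAA, bound by ETS factors, in 24.7% against 13.3%, and GCGCATGC, bound by NRF1, in 4.99% against 2.55%. In all, 320 members held TCGCGAGA and 110 the TCF sequence, 6 members held both, and 496 held neither. The median fold was 34.9 with TCGCGAGA, 18.4 with the TCF sequence and 16.2 with neither.

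**Figure D4:**
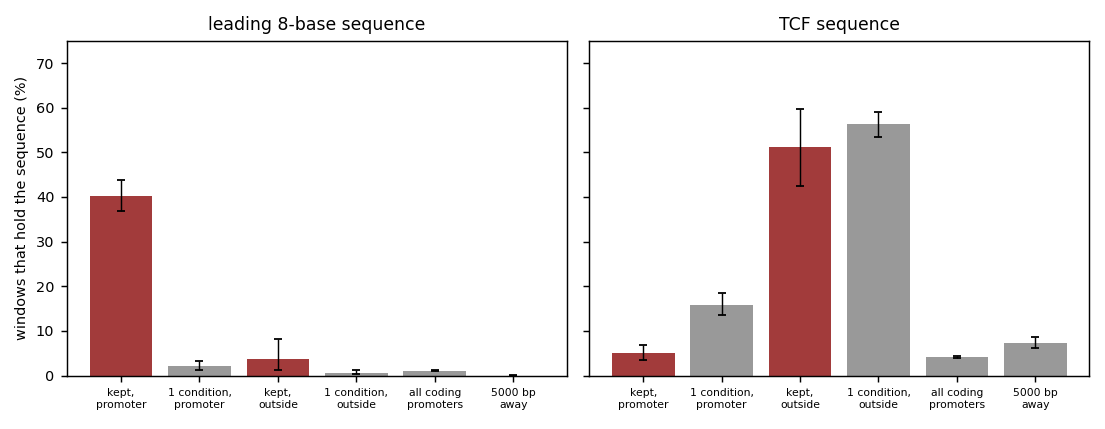
Percent of windows within 100 bp of the summit that hold the leading 8-base sequence (left) or the TCF sequence (right), for sites kept in all conditions (red) and other windows (grey). Error bars are exact 95% binomial intervals and cover counting error only. The left panel stands out at promoter members with 40.3%, and the right at members and single-condition sites outside promoters with 51.1% and 56.3%.

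The 6 members of highest median fold outside promoters lay near Naa30, Lef1, Pura, Grcc10, Ctdsp2 and Vgll4. The site 16464 bp from Naa30, the catalytic subunit of an N-terminal acetyltransferase (chromosome 14, 49155122 to 49156158), had a median fold of 53.8. The 3 folds were 25.7, 67.1 and 36.6 for naive ESC, 40.5, 94.6 and 76.5 for CEpiLC, 67.0, 81.9 and 105 for SOX2-ON, and 22.4, 29.5 and 34.5 for SOX2-OFF, so that SOX2-OFF lay wholly below SOX2-ON. A peak of another target overlapped it in 47 of 48 libraries. The site 4367 bp from the start of Lef1 (chromosome 3, 131105428 to 131106744), a TCF/LEF family gene, had a median of 53.4 and ranged from 33.9 to 70.4. β-catenin and SOX2 were at this site in all of their 12 libraries each, TCF7L1 in 4 of 12. The sites in exons of Pura and Atn1, the latter nearest to the start of Grcc10, had no TCF sequence, and that in Pura held TCGCGAGA. Their median folds were 51.3 and 49.9, with other targets in 7 and 2 of 48 libraries. The site near Ctdsp2 had a median of 45.5 and that in an intron of Vgll4, a cofactor of TEAD factors, one of 38.3, with other targets in 31 and 42 libraries.

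Genes of the WNT pathway were among the members. In all, 880 of 21924 protein-coding gene symbols (4.01%) had a member within 1000 bp of a start. The lists below were drawn up for this description, and these shares carry no test. A TCF7L2 site of some kind was at 22.1% of all genes and a single-condition site at 3.83%. For WNT feedback genes these shares were 64.0% and 16.0%, and for TCF/LEF and β-catenin genes 77.8% and 11.1%. They were 59.1% and 0 for pluripotency genes and 53.1% and 15.6% for caudal epiblast and streak genes. A higher share than 4.01% is thus not particular to kept sites. Of 25 WNT feedback genes, 6 had a member promoter (24.0%): Axin2, Nkd1, Porcn, Sp5, Tcf7 and Znrf3. None of these 6 sites held TCGCGAGA and 4 held the TCF sequence. Sp5 (chromosome 2, 70474316 to 70476097), a transcription factor gene induced by WNT, was the strongest of them, with a median fold of 61.8. Its folds were 31.0, 49.5 and 45.3 in naive ESC, all below the 61.8, 92.7 and 83.9 of CEpiLC, with 61.8, 33.8 and 72.9 in SOX2-ON and 47.9, 76.6 and 89.6 in SOX2-OFF. The promoter of Axin2 (chromosome 11, 108920051 to 108922044), whose product scaffolds β-catenin degradation, had a median of 52.7, and that of Tcf7 one of 21.6. Ccnd1, Lef1, Sp5 and Znrf3 were also nearest to members outside promoters.

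Of 18 genes of the TCF/LEF and β-catenin machinery, 2 had a member promoter (11.1%), Axin2 and Tcf7. Of 22 pluripotency genes 2 did (9.09%, against 4.01% of all genes), Klf4 and Lin28a, with median folds of 15.3 and 17.1. Of 32 genes of the caudal epiblast and primitive streak 2 did (6.25%), Cdx1 and Meis2, with 30.2 and 10.2, and a member in an intron of Cdx2 (chromosome 5, 147303929 to 147305656) had 33.1. None of 18 neural and primed epiblast genes had a member promoter. At the Cdx2 site the folds of SOX2-OFF were 12.9, 16.6 and 29.6, all below those of naive ESC at 32.5, 55.8 and 57.6.

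Genes of ribosomes, translation and splicing had member promoters in larger shares than the 4.01% of all genes. TCF7L2 sites of some kind were also more frequent in these lists, at 29.4% to 49.1% of genes against 22.1% of all genes. Of 85 genes of cytoplasmic ribosomal proteins, 20 had a member promoter (23.5%), 17 of these held TCGCGAGA, and 1 had a single-condition site. The strongest were Rps19 with a median fold of 143 (55.1 to 241 over the 12 libraries), Rps28 with 64.3, whose site is shared with Ndufa7, and Rpl12 with 58.2, whose site is shared with Lrsam1. Of 68 translation initiation genes 8 had a member promoter (11.8%), led by Eif4a3 of the exon junction complex with 86.3, Eif5 with 78.2 and Eif5b, whose site is shared with Txndc9, with 29.0. Of 55 splicing genes 8 did (14.5%), led by Srsf10 with 49.2, Hnrnph3 with 35.7 and Sf3a2 with 34. Of 78 genes of mitochondrial translation 6 did (7.69%), led by Mrpl48 with 45.3, Mrpl57 with 39.5 and Mrps7 with 34.3, at sites shared with Rab6a, Ska3 and Gga3. Of 15 small nucleolar RNA host genes 2 did (13.3%), Snhg8 with 29.3 and Snhg9, whose site is shared with Rps2, with 23.4. A single-condition site was at 4 of these host genes (26.7%). Such sites were at 10.9% of splicing, 6.41% of mitochondrial translation and 2.94% of initiation genes, against 3.83% of all genes. A higher share at splicing, mitochondrial translation and host genes is thus not particular to kept sites. TCGCGAGA was at 6 of the 8 splicing, 3 of the 8 initiation and 2 of the 6 mitochondrial sites. None of 68 replication histone genes had a member promoter, although 33 of them had a TCF7L2 site of some kind.

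The other targets were measured independently of the rule. Their lists each held a fixed number of strongest peaks, so a share says how many of those peaks fell on members and not whether total binding changed. Over all members, β-catenin peaks covered 10.2% to 16.3% per library, LEF1 2.39% to 16.4%, TCF7L1 7.72% to 11.5% and SOX2 18.2% to 45.1%. These shares were lower than at single-condition sites. Members minus single-condition sites was -14.2 ± 2.73 percentage points for β-catenin (SD over 12 libraries, lower in 12 of 12), -7.20 ± 4.50 for SOX2 (lower in 11), -6.76 ± 6.81 for LEF1 (lower in 10) and -6.87 ± 4.0 for TCF7L1 (lower in 11). In two-sided exact permutation tests that flip the sign of each library, p was 4.88e-04, 9.77e-04, 0.00293 and 0.00146, and adjusted over 4 targets 0.00195, 0.00195, 0.00293 and 0.00195. With signs flipped together within a replicate number, the exact permutation p was 0.250 for each target, the smallest that 8 assignments allow. Without replicate 1 the LEF1 and TCF7L1 differences were -7.53 and -8.42. With all deposited peaks the SOX2 difference turned to 4.64 (adjusted exact permutation p = 0.0151). Against the single-condition sites of 1 condition at a time, 12 of 16 calls were lost, among them all 4 for CEpiLC, which supplied 1119 of the 2130 sites.

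The direction was opposite at promoters and away from them. At promoters, members stayed lower in the share per library, by means of -4.19 points for β-catenin, -3.10 for SOX2, -3.01 for LEF1 and -1.64 for TCF7L1. Outside promoters, members were higher in 12 of 12 libraries of each target, by 24.2 ± 4.64 points (β-catenin), 19.9 ± 7.45 (SOX2), 27.2 ± 6.83 (LEF1) and 28.2 ± 7.94 (TCF7L1) (SD over 12 libraries). The exact permutation p outside promoters was 4.88e-04 for each target, the smallest that 4096 assignments allow, and the same after adjustment over 4 targets. At promoters the adjusted p from the same exact permutation test was 6.51e-04 for β-catenin, LEF1 and TCF7L1 and 9.77e-04 for SOX2. Without replicate 1 the LEF1 and TCF7L1 differences were -2.93 and -1.97 at promoters and 28.2 and 26.0 outside. CEpiLC supplied 638 of the 864 single-condition promoter sites. Support in all 4 conditions gave another order at promoters. β-catenin, LEF1 and TCF7L1 had it at 2.56%, 0.512% and 1.15% of members, against 0.810%, 0.116% and 0.116% of single-condition sites. SOX2 had it at 3.97% against 4.98%. The lower share over all members went with their larger fraction of promoters. Outside promoters, members were also wider than single-condition sites, at a median of 675 against 380 bp, with a median fold of 16.3 against 9.74. By rule, single-condition sites lacked TCF7L2 support in the remaining conditions, yet libraries of all conditions were scored at them. The part of this selection in the direction and the p-values was not tested.

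**Figure D5:**
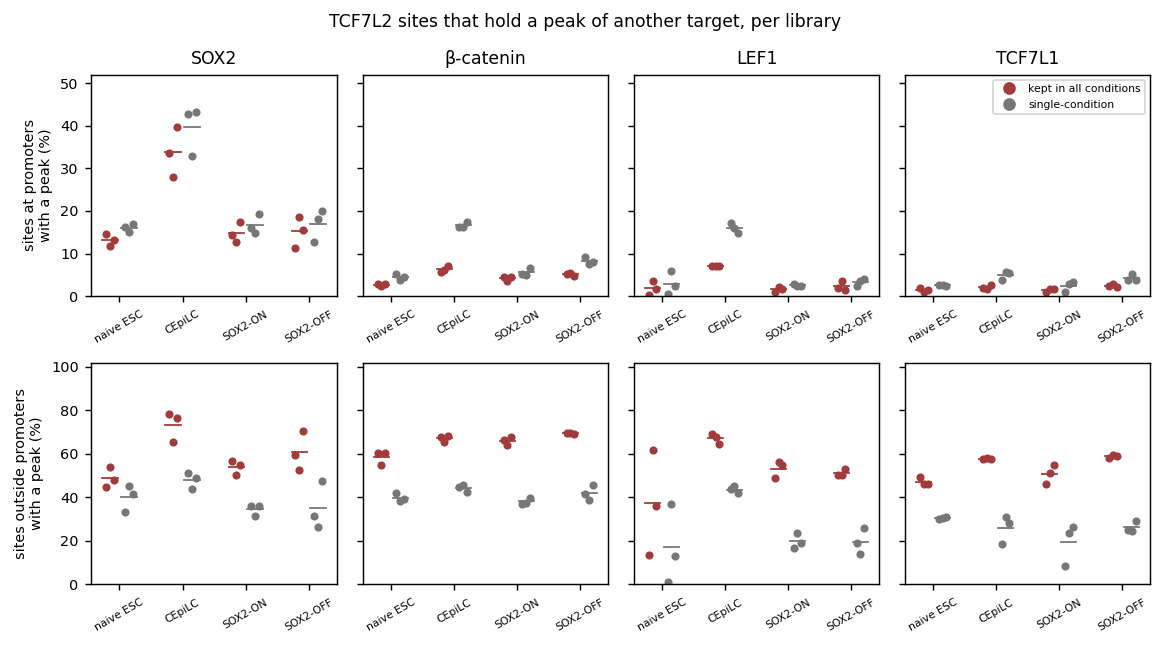
Percent of TCF7L2 sites with a peak of SOX2, β-catenin, LEF1 or TCF7L1 in the shortened list of each library, at promoters (top) and outside promoters (bottom). Points are libraries and lines the mean of 3. At promoters the sites kept in all conditions (red) have means below single-condition sites (grey), and outside promoters they lie above, at 54.7% to 69.8% for β-catenin.

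Members with the TCF sequence and members with TCGCGAGA differed widely in the other targets. These classes were formed after the values had been seen and are described without a test. At members with the TCF sequence, β-catenin peaks covered 66.4% to 85.5% per library, TCF7L1 46.4% to 64.5%, LEF1 9.09% to 80.9% (36.4% at the lowest without naive ESC replicate 1) and SOX2 53.6% to 84.5%. At members with TCGCGAGA the shares were 0 to 2.19%, 0 to 0.938%, 0 to 4.38% and 8.44% to 38.8% in the same order. Those with neither sequence had β-catenin at 4.23% to 10.1%. Of the 71 members outside promoters with the TCF sequence, 63 met the same support rule for β-catenin in all conditions (88.7%), and none of the 320 with TCGCGAGA did. In the full lists the gap was smaller, since β-catenin peaks of some strength lay at 1.27% to 48.6% of promoter members with TCGCGAGA, at 4.16% to 54.0% of those with neither sequence and at 80.9% to 96.4% of members with the TCF sequence, against 0.326% to 23.2% of members moved by 5000 bp.

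A minority of members were kept by the other targets as well, though in larger shares than over all sites. Members with support in all 4 conditions of the other target numbered 100 for β-catenin, 90 for SOX2, 72 for TCF7L1 and 48 for LEF1. In that order the shares were 10.9%, 9.78%, 7.83% and 5.22%, against 1.95%, 2.88%, 0.876% and 0.443% of all sites. Of single-condition sites they were 6.43%, 9.48%, 1.83% and 0.657%. All 5 targets kept 26 members. Seen from the other side, 17% of the 581 sites that β-catenin kept by the same rule overlapped a member, 29.4% of those of TCF7L1, 37.8% of those of LEF1 and 4.83% of those of SOX2. The members with peaks in most other libraries lay near 2510009E07Rik, Efr3a and Txnl1, each with 48 of 48 and each with the TCF sequence, at median folds of 29.7, 27.1 and 20.0. At the other end were members with no peak of another target in any shortened list. They made up 26.7% of members, against 68.5% of all sites and 14.6% of single-condition sites. They numbered 246, 233 of them at promoters. The strongest of these were Zzz3, Denr and Mcts2, an imprinted retrogene within H13, with 183, 173 and 132.

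Whether the other targets at members moved with the SOX2 level was asked within each cell line. Averaged over the cell lines, all 4 targets covered fewer members at high SOX2 in the shortened lists. In percentage points, high minus low was -11.2 (SOX2), -2.83 (β-catenin), -4.60 (LEF1) and -2.14 (TCF7L1), with p of 0.0250, 0.00500, 0.0400 and 0.00500 in two-sided exact permutation tests within cell lines, and 0.0333, 0.0100, 0.0400 and 0.0100 after adjustment over 4 targets. The smallest p that these 400 assignments allow is 0.00500. For SOX2 and LEF1 the difference was larger in the WT line, at -21.1 and -8.91 for naive ESC minus CEpiLC. SOX2-ON minus SOX2-OFF gave -1.38 and -0.290. In the WT line the SOX2 level cannot be told apart from the state of differentiation. With libraries blocked by replicate number, the adjusted exact permutation p was 0.0625 to 0.0938. With all deposited peaks the differences turned to 8.03, 8.91 and 6.67 for β-catenin, LEF1 and TCF7L1 and were -1.65 for SOX2, with adjusted exact permutation p from 0.653 to 0.860. Without replicate 1 the LEF1 and TCF7L1 differences were -3.15 and -2.12, and the exact permutation test over the remaining libraries cannot go below 0.0556.

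In lists of 20000 peaks, SOX2 covered 18.2, 18.6 and 19.1% of members in the naive ESC libraries. It covered 33.7, 40.4 and 45.1% in those of CEpiLC, so that the groups did not overlap. For SOX2-ON the share was 20.7% ± 2.30 and for SOX2-OFF 22.1% ± 2.95 (SD, n = 3 each), and the groups overlapped. Naive ESC minus CEpiLC was -21.1 points for SOX2, -8.91 for LEF1, -4.35 for β-catenin and -2.17 for TCF7L1, each with exact permutation p = 0.1, the smallest that 3 against 3 libraries allow, and adjusted p = 0.133 over 8 tests. Without replicate 1 it was -6.36 for LEF1 and -2.66 for TCF7L1. SOX2-ON minus SOX2-OFF was -2.10 for TCF7L1 and -1.30 for β-catenin (exact permutation p = 0.1, adjusted 0.133 each), -1.38 for SOX2 (exact permutation p = 0.500, adjusted 0.571) and -0.290 for LEF1 (exact permutation p = 0.800, adjusted 0.800). Without replicate 1 it was 0.0543 for LEF1 and -1.58 for TCF7L1. LEF1 covered 2.39, 6.96 and 12.3% in naive ESC, where the lowest value was that of replicate 1, and 15.8, 16.2 and 16.4% in CEpiLC. The β-catenin shares were 11.1% ± 0.781 for naive ESC, 15.5% ± 0.723 for CEpiLC, 13.5% ± 0.737 for SOX2-ON and 14.9% ± 0.351 for SOX2-OFF (SD, n = 3 each). The promoter share of the SOX2 lists themselves moved with the first difference, from between 13.1% and 14.4% in naive ESC to between 26.1% and 33.8% in CEpiLC, and so did that of LEF1, from between 4.43% and 8.40% to between 17.8% and 19.1%. Its part in these differences was not tested. Outside promoters SOX2 also covered more members in CEpiLC, at 73.4% ± 6.92 against 48.9% ± 4.74 in naive ESC (SD, n = 3 each).

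Calls at single members were few. A site was called for a target when 3 of 3 libraries of one condition and 0 of 3 of the other had a peak. For SOX2, 55 members were called for CEpiLC over naive ESC (5.98%, against 2.46% of all 27969 sites and 9.95% of single-condition sites). For naive ESC over CEpiLC 0 were called (1.29% of all sites). The strongest of the 55 were the promoters of Stxbp4, Crebzf and Zbtb40, all with TCGCGAGA. SOX2-ON over SOX2-OFF gave 8 members (0.870%, against 1.94% of all sites), led by Cdk12, Wnk1 and Usp53, and SOX2-OFF over SOX2-ON gave 13 (1.41%, against 0.776%), led by Eif4a3, Axin2 and Usp54. For β-catenin, 21 members were called for CEpiLC over naive ESC (2.28%, against 3.09%), led by Pura, Ddx20 and Thoc1, and 0 the other way (2.71% of all sites). SOX2-OFF over SOX2-ON gave 4 (0.435%, against 0.915%), led by Sox14, Prickle1 and Plekhg2, and SOX2-ON over SOX2-OFF gave 0 (1.38% of all sites).

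For LEF1, 21 members were called for CEpiLC over naive ESC (2.28%, against 3.11%), led by Vdac3, Rictor and Phf12, and 0 the other way (0.00358% of all sites), where naive ESC replicate 1 held few TCF sequences. LEF1 had 2 calls for SOX2-ON over SOX2-OFF, Pef1 and Sez6 (0.217%, against 0.751%), and 2 for the reverse, 2900052L18Rik and Nkx6-1 (0.217%, against 0.468%). TCF7L1 had 11 calls for CEpiLC over naive ESC (1.20%, against 0.965%), led by Thoc1, 1700001O22Rik and Plxdc2, and 1 for the reverse, near Plcg2 (0.109%, against 2.17%). It had 2 for SOX2-OFF over SOX2-ON, again 2900052L18Rik and Nkx6-1 (0.217%, against 0.815%), and 0 for the reverse (0.440% of all sites). Except for SOX2 in CEpiLC, SOX2 in SOX2-OFF and TCF7L1 in CEpiLC, these shares were below those of all sites. In these exceptions members were still called less often than single-condition sites, whose shares were 9.95%, 2.68% and 5.96% in the same order. Absence in a shortened list was seldom absence in the full one: 5 of the 112 members called at least once also had no peak in the full lists of the other condition.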

How the data were processed

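ChIP-seq for SOX2, β-catenin, LEF1, TCF7L1 and TCF7L2 was done on cells fixed with DSG and formaldehyde, with 76-bp single-end reads. The authors aligned reads to mm10 and called narrow peaks in each library with MACS2 (version not given in the sources used here). The deposited peak lists give each peak's fold over local background (a ratio) and its p-value and q-value as −log10. They hold no read counts, so depth is unknown, intervals cover counting error only, and a peak missing from a list may reflect depth. The 4 input libraries were not analysed here. The p-value column ranked peaks in an alternative only, and q-values were read for their lowest value.

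TCF7L2 lists were shortened to 4134 peaks by fold and merged where they shared 1 bp. Other lists were shortened to the shortest list of their target, at most 20000 peaks. Promoters lie within 1000 bp of a start in the GENCODE gene models of GRCm38 used here. Sequences were read from GRCm38 within 100 bp of the summit, on both strands. Tests were exact permutations over libraries with Benjamini-Hochberg adjustment and a threshold of 0.05 (Python 3.11.15, NumPy 2.4.6, pandas 2.3.3, SciPy 1.17.1). Only the test that flips the sign of each library and the test within cell lines were checked on simulated data. Named sites are the 6 highest by median fold at and outside promoters, up to 3 per gene list and per call, and the 3 with the most and the fewest peaks of other targets. Members, gene lists and tests were chosen with earlier results of these data known, and the leading 8-base sequence after its values were seen. Alternatives changed the ranking column, list length, support, overlap, promoter distance, gene models, window, replicates and blocking.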

Additional observations from a re-analysis of the deposited data

Results flagged for a closer look

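The change in the share of members with a peak of another target differed between the cell lines. Naive ESC minus CEpiLC differed from SOX2-ON minus SOX2-OFF by -19.7 (SOX2), -3.04 (β-catenin) and -8.62 (LEF1) percentage points, each with adjusted p = 0.0400 over 4 targets in an exact permutation test of the cell line labels within SOX2 levels. For TCF7L1 the difference was -0.0725 (exact permutation p = 0.970, adjusted 0.970). With every list at 1628 peaks none of the 3 calls remained: the difference was -0.181 for SOX2 (adjusted exact permutation p = 0.970), and -2.10 for β-catenin and -5.76 for LEF1 (adjusted exact permutation p = 0.05 each, not under the threshold). With all deposited peaks none of the 4 passed, with adjusted exact permutation p = 0.940 for each. Naive ESC LEF1 replicate 1, with 2.39% of members against 6.96% and 12.3% in its group, enters the LEF1 value, which was -6.41 without replicate 1. That value and those of the other targets without replicate 1 had adjusted exact permutation p from 0.222 to 0.333, in a test that cannot go below 0.0556. The cell line, clone and culture history cannot be told apart in this contrast.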

How the results depend on the processing

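The number of members was 1985 with all deposited peaks and 666 to 724 without 1 replicate number, where 2 of 2 libraries per condition were asked for. The promoter share was 87.3% with 2000 peaks, 75.8% with all peaks, 90.4% with 3 of 3 libraries, 87.2% within 2500 bp, 82.1% with protein-coding genes only and 87.7% to 89.3% without 1 replicate number. Members with the TCF sequence at promoters were 10.9% within 250 bp. Of the 112 called members, 5 were absent from full lists too.

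Members minus single-condition sites turned to 4.64 for SOX2 with all peaks, and to 19.9 (SOX2), 24.2 (β-catenin), 27.2 (LEF1) and 28.2 (TCF7L1) outside promoters (18.8, 24.0, 28.2 and 26.0 without replicate 1). Against single-condition sites of 1 condition alone, an alternative chosen after seeing the data, calls were lost in naive ESC (-12.8 SOX2, -7.80 LEF1, -16.3 TCF7L1), CEpiLC (-5.61 SOX2, -10.8 β-catenin, -6.77 LEF1, -3.23 TCF7L1), SOX2-ON (-7.72 LEF1, -6.81 TCF7L1) and SOX2-OFF (1.75 SOX2, -4.38 LEF1, -5.70 TCF7L1). Without 1 replicate number the differences ranged over -7.50 to -6.63, -14.4 to -14.1, -7.53 to -6.00 and -8.42 to -5.97 for SOX2, β-catenin, LEF1 and TCF7L1.

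High minus low SOX2 with all peaks was -1.65 (SOX2), 8.03 (β-catenin), 8.91 (LEF1) and 6.67 (TCF7L1). It lost its call for SOX2 at promoters (-10.5) and for LEF1 outside (-14.0). Without 1 replicate number it was -12.1 to -10.0, -3.12 to -2.39, -5.84 to -3.15 and -2.28 to -2.01 in the same order of targets, with no p under 0.0556 possible. Naive ESC minus CEpiLC with all peaks was 4.31 (β-catenin), 8.22 (LEF1) and 14.4 (TCF7L1), and the difference of SOX2-ON from SOX2-OFF was 11.7 (β-catenin) and 9.60 (LEF1). SOX2-ON minus SOX2-OFF without 1 replicate number was -3.10 to 0.598 for SOX2 and -0.652 to 0.0543 for LEF1.

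The difference between cell lines, under alternatives chosen after seeing the data, was -0.181 (SOX2), -2.10 (β-catenin) and -5.76 (LEF1) at the shortest length, where all 3 calls were lost, -3.30, -7.43, -1.38 and 15.4 (TCF7L1) with all peaks, -20.1 (SOX2), -4.48 (LEF1) and 0.299 (TCF7L1) at promoters, and -17.5 (SOX2), -5.04 (β-catenin) and -31.9 (LEF1) outside. Without 1 replicate number it was -24.5 to -16.8, -3.42 to -2.34, -11.1 to -6.41 and -1.09 to 0.870 in the order above, with no p under 0.0556 possible. The cause of these changes was not tested.

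Whether replicate numbers pair the libraries was not settled. Pooled over targets and cell lines, correlations of deviations between same-numbered libraries had a median of 0.0232, with 2 of 30 over 0.1. For different numbers the median was -0.00998, with 0 of 60 over 0.1. Between SOX2-ON and SOX2-OFF, each library of β-catenin, LEF1 and TCF7L1 correlated best with its own number (0.0327 to 0.187), which is a hint from the data and not from the design. With the replicate block, the differences between members and single-condition sites kept their values (-7.20, -14.2, -6.76 and -6.87), with exact permutation p = 0.250, the smallest that 8 assignments allow. High minus low SOX2 with the block kept -11.2, -2.83, -4.60 and -2.14, with adjusted exact permutation p of 0.0938, 0.0625, 0.0938 and 0.0625. There were 201 pairs of a result and an alternative. Of these, 113 kept direction and side of the threshold, and 54 kept direction and were no longer past it. Direction changed in 23, and 11 moved by more than their error or by over 1.5 times. These counts are no measure of robustness by themselves. Naive ESC minus CEpiLC and SOX2-ON minus SOX2-OFF had smallest exact permutation p of 0.1 to 0.333, so they could never pass the threshold. Members minus single-condition sites with the block could only lose their calls. So could high minus low SOX2 and the difference between cell lines without a replicate number, at a smallest exact permutation p of 0.0556.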
